A study of Mus musculus with 6 samples.

Results

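Potassium channel genes are described across the cell types of the mouse aorta. The members are all gene symbols that start with Kcn, together with the sulfonylurea receptor genes Abcc8 and Abcc9, and antisense transcripts (symbols ending in os or ot, a final number included) were left out. That gave 96 members among 55450 genes. The series holds droplet single-cell RNA sequencing of aortic tissue from 6 mouse samples, 3 of the genotype Best3FL/FL, whose floxed Best3 gene is intact, and 3 of the genotype Best3SMKO, a smooth muscle knockout. The gene encodes bestrophin 3, a relative of the bestrophin anion channels. The labels do not give the Cre line or the age of the mice. Cells of all samples came in 1 matrix whose barcodes tell 6 libraries apart but name no sample, so no value below compares the genotypes.

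Potassium channels let potassium leave or enter a cell along its gradient and thereby set the membrane potential. In an arterial smooth muscle cell an open potassium channel hyperpolarises the membrane, closes voltage-gated calcium channels and relaxes the cell, while in endothelium and pericytes the same currents feed signals that spread along the vessel. The families differ in what opens them: voltage, calcium, the energy state of the cell, or, for the tandem pore domain channels, very little, which makes them leak channels. Accessory subunits have no pore of their own and change the gating or surface level of a pore subunit.

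The 6 libraries held 7475 to 16269 barcodes and 51813179 to 96144873 UMIs, and 50769 cells were kept in 29 clusters, from which 11 marker-named classes of at least 200 cells were formed. Library 5 stood apart: it held most of the B, T and epithelial cells, and 2 fibroblast clusters came almost wholly from it. Of 60454 distinct barcode sequences, 414 occurred in more than 1 library. Best3 itself had 26 UMIs, 1 to 13 per library, too few to check a label. Classes are named from fixed lists of marker genes, not from their leading genes. The smooth muscle class carried the list markers Myh11, Acta2 and Cnn1, as the labelled tissue requires. The epithelial class had Bpifa1 and Scgb1a1 among its leading genes, which are airway genes, and so need not come from the aorta.

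Levels are given as CPM, the UMIs of a gene per 1e+06 UMIs of the class or library, with exact 95% Poisson intervals that cover counting error only. A UMI marks a molecule and is not divided by gene length, so levels of different genes are placed in order only as a description. The members together had 306725 UMIs, a level of 768.1 CPM over all barcodes and 704.8 to 951.6 CPM in single libraries. No UMI was found for 4 members (Kcnk16, Kcnv1, Kcns2 and Kcnj6), 30 stayed under 1 CPM in every class, and 43 reached at least 10 CPM in a class. A total of 69 members had at least 20 UMIs in a class. Of these 69, 15 were placed in 1 class, meaning a CPM 4 or more times that of each other class and highest in every library with at least 20 cells of the class. The same rule placed 7.46% of all 20454 genes with at least 20 UMIs in a class. It is a rule of size and not a test.

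The role groups are described by how many members reached these limits. No share of all genes is on hand for the limit of 10 CPM, here or above. Of 40 voltage-gated pore subunits 15 reached 10 CPM, and 7 of the 27 with at least 20 UMIs in a class were placed. The 12 calcium-activated genes include the related sodium-activated Kcnt1 and Kcnt2 and the related Kcnu1. Of these 12, 8 reached 10 CPM, and 2 of the 10 with at least 20 UMIs were placed. Among 15 inward rectifiers 7 reached 10 CPM, and 3 of the 10 with at least 20 UMIs were placed. Among 12 voltage-gated accessory genes these counts were 7 and 2 of 10, and among 14 tandem pore domain genes 5 and 1 of 9. Of the sulfonylurea receptor genes, Abcc9 reached 10 CPM and neither was placed, and Kcnrg, a soluble regulator, stayed at 6.42 CPM at most.

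**Figure D1:**
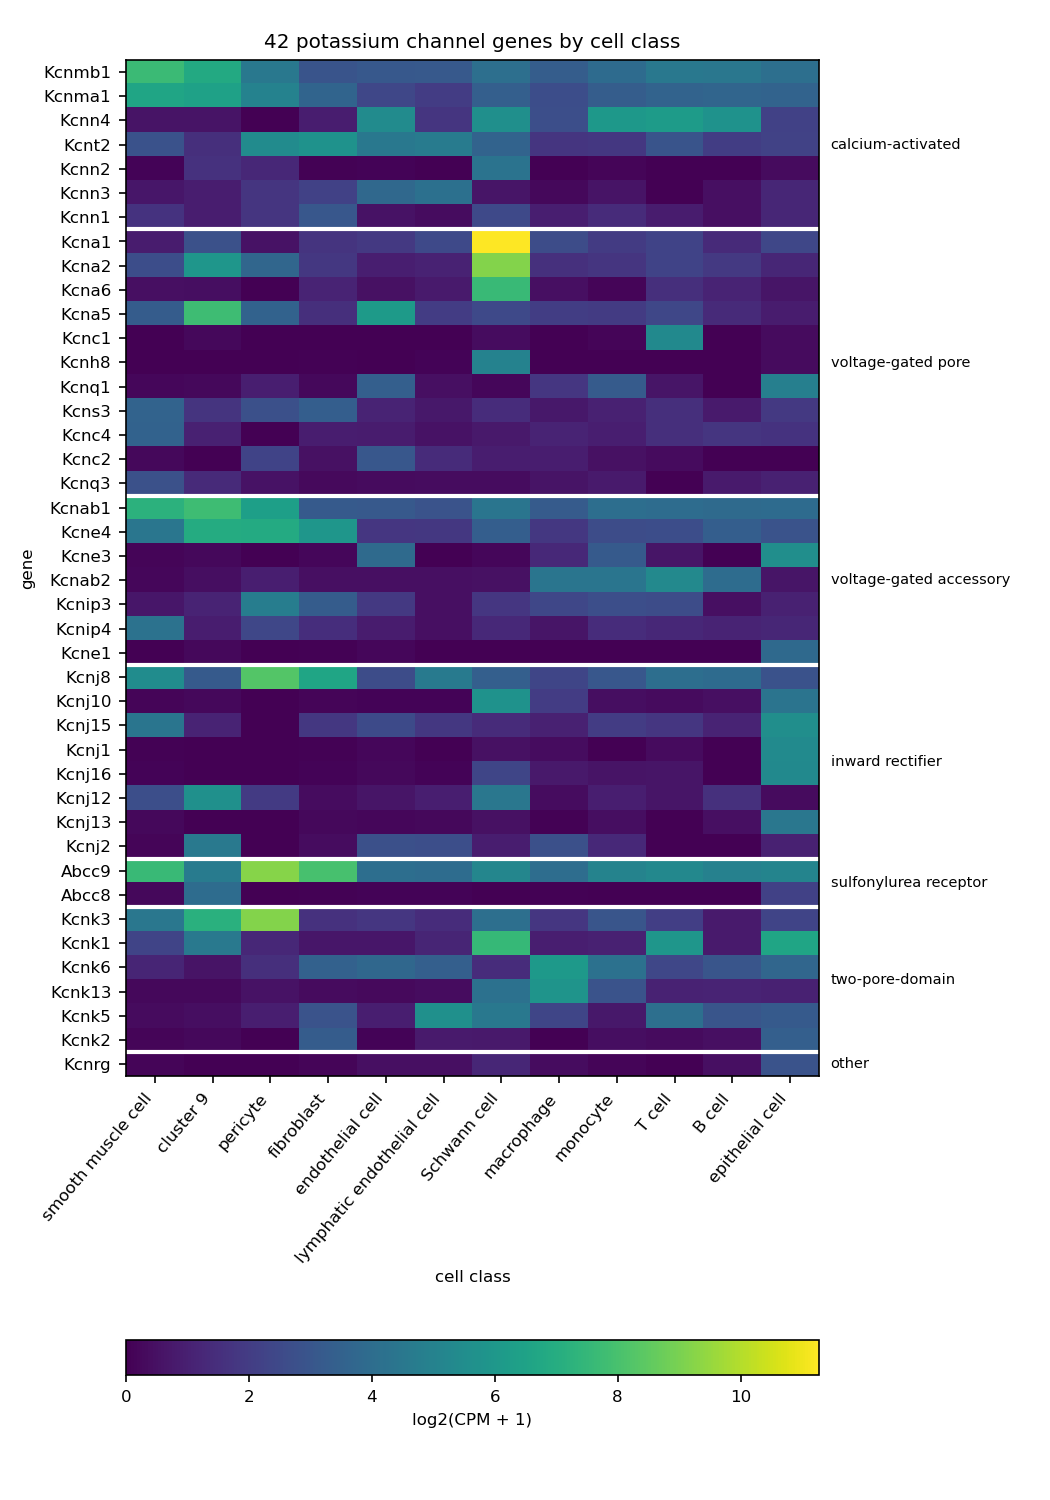
Colour shows log2(CPM + 1) of 42 named members (rows, grouped by role) in the 11 classes and in the unnamed cluster 9 (columns). The brightest cell is Kcna1 in Schwann cells at 2479.6 CPM, and each class has its own few bright rows.

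The classes differed in how much of their RNA the members took and in which members led. Schwann cells stood at 3915.9 CPM for all members together, of which Kcna1 alone made 63.3%. Pericytes followed at 2063.8 CPM, led by Abcc9, Kcnk3 and Kcnj8, which together made 72.5%. Smooth muscle cells stood at 985.7 CPM, fibroblasts at 611.4 CPM, epithelial cells at 557.3 CPM and T cells at 439.4 CPM, and the remaining classes lay between 214.4 CPM in lymphatic endothelial cells and 375.7 CPM in endothelial cells. Libraries ranged from 886.4 to 1108 CPM in smooth muscle cells and from 1732.2 to 2357.9 CPM in pericytes, so these classes did not overlap. The pericyte class had 262 cells, of which 12 were in library 3, and its library values come from the other 5 libraries.

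Smooth muscle cells (12733 cells, median depth 10697 UMIs) had Kcnmb1, Abcc9 and Kcnab1 as their highest members. Kcnmb1, the smooth muscle beta subunit that raises the calcium sensitivity of the large-conductance calcium-activated channel, lies on chr11:33963013-33973641 (GRCm38, plus strand) and stood at 202.5 CPM (200.1 to 204.9). Its 6 libraries lay between 173.8 and 223.4 CPM. The next class, pericytes, stood at 22.1 CPM and at 17.5 to 27.1 CPM in its libraries, far below every smooth muscle library. Kcnmb1, Kcnc4 (a voltage-gated pore, 10.9 CPM) and Kcnip4 (a calcium-binding subunit of A-type channels, 17.9 CPM) were the 3 members placed in smooth muscle, where the rule placed 0.513% of all genes. Kcnip4 stood only 4.22 times above pericytes and lost its place in 5 of 14 alternatives; Kcnmb1 lost it in 4, those in which cells of cluster 9, described below, were counted as pericytes, and Kcnc4 lost it in 3.

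Kcnma1, the pore of the same channel, was less restricted. It stood at 97.6 CPM in smooth muscle, with libraries at 88.1 to 117.1 CPM (median 91.6), against 31.0 CPM in pericytes, whose libraries ranged from 6.98 to 58.7 CPM. The libraries did not overlap, but the ratio of 3.14 missed the factor of 4. In smooth muscle cells thinned to 2000 UMIs each, a Kcnmb1 UMI was found in 31.5% of cells with a Kcnma1 UMI and in 31.7% of cells without one, shares that lay close together. Kcnab1, a cytoplasmic beta subunit of Shaker-type voltage-gated channels, stood at 150.1 CPM in smooth muscle (113.3 to 180.0 in libraries) and at 82.3 CPM in pericytes (42.7 to 114.5). Those libraries overlapped. Kcnh2, the ERG channel known for cardiac repolarisation, stood at 59.7 CPM (48.2 to 66.0) in smooth muscle. Kcnh2 was chosen for mention after its values were seen.

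Part of what other classes showed of these genes moved with smooth muscle RNA as a whole. The 8 smooth muscle markers summed to 3.85% to 11.3% of their smooth muscle level in the fibroblast, endothelial, lymphatic, Schwann, epithelial and immune classes, and Kcnmb1 in the same classes stood at 3.24% to 10.7% of its own. The values farthest above that range were Abcc9 in fibroblasts (127.4% of the smooth muscle level) and Kcnh2 in Schwann cells (39.7%). Abcc9 also reached 14.99% to 19.0% in B, T, Schwann, epithelial and monocyte cells, Kcnab1 13.4% in Schwann cells, and Kcnma1 12.3% in B cells and 11.8% in fibroblasts. The range pools classes whose marker shares differ. Fibroblasts had a marker share of 3.85%, against which Kcnma1 (11.8%) and Kcnip4 (10.2%) stood well above. Kcnab1 (5.43%), Kcnh2 (3.94%) and Kcnmb1 (3.24%) lay nearer to the fibroblast marker share. In pericytes the markers summed to 61.6%, Kcnmb1 to 10.9% and Kcnip4 to 23.7%. Low values of smooth muscle members in the other classes are not read as expression, and the part that free RNA plays in them was not tested.

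The vascular ATP-sensitive channel is built from the inward rectifier Kcnj8 and the sulfonylurea receptor Abcc9, and both were highest in pericytes. Kcnj8 stood at 307.0 CPM (283.9 to 331.5) in pericytes, with libraries at 324.8, 274.0, 311.7, 343.4 and 341.4 CPM. In fibroblasts it stood at 99.1 CPM (71.3 to 128.3 in libraries) and in smooth muscle at 43.3 CPM (35.2 to 47.7). No library of these 3 classes overlapped with one of another class, and pericytes were above fibroblasts, which were above smooth muscle. Abcc9 followed the same order, at 603.8 CPM in pericytes (544.8 to 656.1), 252.4 CPM in fibroblasts (225.4 to 313.1) and 198.1 CPM in smooth muscle (163.8 to 241.8), but here the fibroblast and smooth muscle libraries overlapped. The ratio of pericytes to fibroblasts was 3.099 for Kcnj8 and 2.39 for Abcc9, so neither gene was placed. The order was not kept in all alternatives. In the 4 that counted cells of cluster 9, described below, as pericytes, the log2 ratio of pericytes to fibroblasts was -0.585 to -0.148 for Abcc9 and -0.208 to 0.161 for Kcnj8. The lowest value of each came with classes from the marker UMIs of each cell. That pericyte class had 1226 cells, 456 from cluster 9 and 173 from the pericyte class used here. The part that cluster 9 plays in the order was not tested by itself. In thinned fibroblasts a Kcnj8 UMI was found in 20.8% of cells with an Abcc9 UMI and in 13.4% of cells without one; in pericytes the shares were 43.4% and 39.1%.

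**Figure D2:**
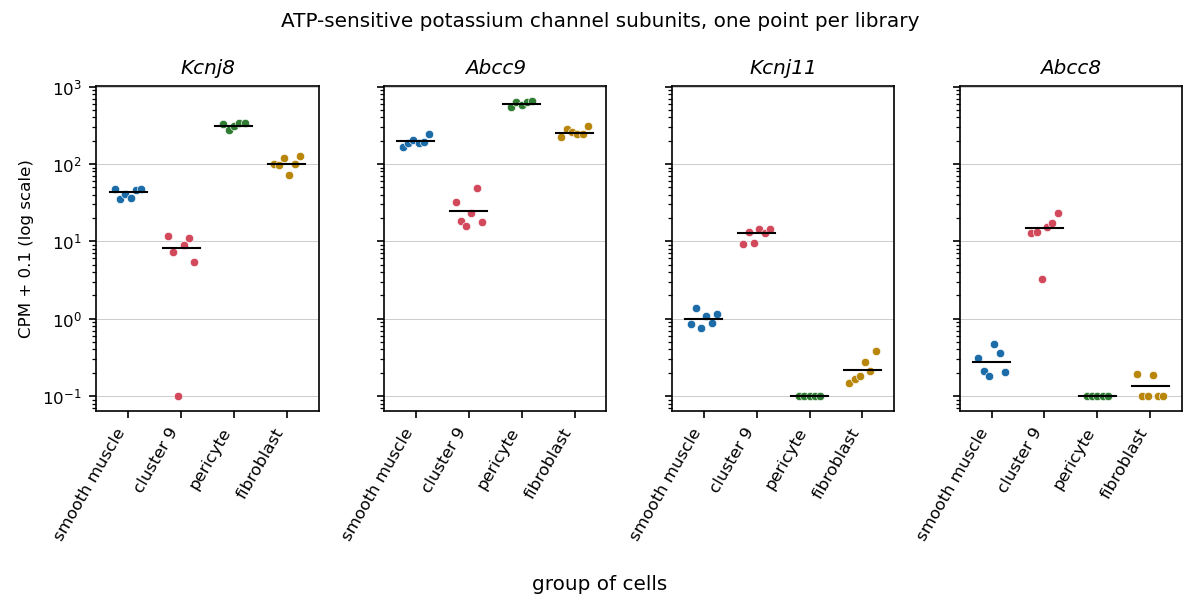
Points are libraries (those with at least 20 cells of the group), black bars the pooled level, on a log axis of CPM + 0.1, for the 4 subunit genes of ATP-sensitive channels in 4 groups of cells. Kcnj8 and Abcc9 are highest in pericytes and low in cluster 9. Kcnj11 and Abcc8 are higher in cluster 9 than in the other groups.

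Kcnj8 (chr6:142564837-142571614) and Abcc9 (chr6:142587862-142702315) lie next to each other on the minus strand of chromosome 6 of GRCm38, 16247 bases apart. They are 1 of 12 pairs of members that neighbour each other in the genome. Of these pairs, 3 had both genes at 10 CPM or more, and in 2 of the 3 both genes were highest in the same class. The other such pair is Kcna1 and Kcna6, both highest in Schwann cells. Kcna5, the next gene to Kcna1 on that chromosome, was highest in endothelial cells. Since these 2 neighbours are the subunits of 1 channel, the 250 bases before the RefSeq start of each (GRCm38.p6, minus strand) are shown 5′ to 3′, at chr6:142571615-142571864 for Kcnj8 and chr6:142702275-142702524 for Abcc9. Capitals mark a GC box, the letters GGGCGG on either strand.

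Kcnj8: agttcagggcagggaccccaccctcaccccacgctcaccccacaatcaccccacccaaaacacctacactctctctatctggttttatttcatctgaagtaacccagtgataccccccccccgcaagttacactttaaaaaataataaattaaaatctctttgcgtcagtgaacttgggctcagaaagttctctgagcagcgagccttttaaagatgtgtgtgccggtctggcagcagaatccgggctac

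Abcc9: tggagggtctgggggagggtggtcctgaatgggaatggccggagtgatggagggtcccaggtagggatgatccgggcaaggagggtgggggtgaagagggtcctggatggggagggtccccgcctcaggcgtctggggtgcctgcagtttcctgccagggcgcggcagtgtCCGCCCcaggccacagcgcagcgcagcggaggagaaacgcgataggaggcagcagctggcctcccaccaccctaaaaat

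The sequences differ in base composition, with 49.2% G or C in the Kcnj8 window and 66.8% in the Abcc9 window, against a median of 52.4% over all promoter windows of RefSeq. A GC box was present once in the Abcc9 window and not in the Kcnj8 window. Windows were on hand for 70 of the 96 members (95 windows), and 45.3% of these held a GC box against 32.7% of all 32851 windows. The letters TATAAA, searched on both strands, were in 3.16% of member windows (Kcnj13, Kcnj16 and Kcnj9) against 12.4% of all. Also searched was the CArG box, a stretch of A or T between CC and GG, in 0 of 95 member windows against 1.47% of all. The SOX letters ACAAAG or ACAATG were in 15.8% of member windows against 25.2% of all. These matches describe the letters only.

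Among the 11 classes of at least 200 cells, Kcnk3, an acid-sensitive leak channel of the tandem pore domain family, was highest in pericytes. Kcnk3 (chr5:30588170-30625271, plus strand, GRCm38) stood at 584.5 CPM (552.4 to 617.9) in pericytes, with libraries at 380.7, 619.0, 578.0, 548.8 and 912.2 CPM. Smooth muscle, the next class, stood at 21.3 CPM, 27.5 times lower, and its libraries ranged from 6.63 to 43.5 CPM. All pericyte libraries were above all smooth muscle libraries. It was the single member placed in pericytes, where the rule placed 0.425% of all genes, and it kept its place in 12 of 14 alternatives, the exceptions being those without library 2 or 4, where the class fell below 200 cells. A UMI was found in 50.8% of thinned pericytes against 3.41% of thinned smooth muscle cells. An unnamed cluster of 150 shallow cells with leading genes similar to those of pericytes (Kcnk3, Colec11, Fst, Vtn) had 442.5 CPM. Kcnk3 was also present in smaller classes, at 239.0 CPM in 17 adipocyte-like cells (52 UMIs) and at 894.0 CPM in the adrenocortical cells of library 5.

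Compared directly with smooth muscle, in a comparison added after the classes were seen, pericytes were higher by the cluster rule (a ratio of at least 2 with 2 CPM added to both, at least 10 CPM and 20 UMIs on the higher side and the same direction in every library) for 7 of 22 members and lower for 6. Of all genes 11.9% were higher and 5.97% lower. Besides Kcnk3, Kcnj8 and Abcc9, the higher members were Kcne4, an inhibitory accessory subunit (116.6 against 20.5 CPM), Kcnd3, an A-type pore (67.7 against 21.9), Kcnt2 (41.8 against 6.099) and Kcnip3, another calcium-binding subunit (26.8 against 0.598). The lower members were Kcnmb1, Kcnma1, Kcnh2, Kcnip4, Kcnc4 and the inward rectifier Kcnj15. Pericytes had no UMI of Kcnc4 or Kcnj15, and with the limit of 3 counts over the class (1.41 CPM) they were at least 7.69-fold and at least 14.3-fold lower than smooth muscle. Kcnd3 was chosen for mention after its values were seen.

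A separate group of contractile cells, cluster 9, had a channel profile unlike either class as a whole. Part of that profile was shared by a smaller cluster of the smooth muscle class, cluster 21, described below. The leading genes of cluster 9 were Olfr558, Pln, Nrip2 and Rergl. Cluster 9 stayed unnamed because its pericyte score (3.50) and smooth muscle score (3.30) lay too close together. It held 33 to 179 cells in each library. Kcna5, a delayed rectifier pore known from pulmonary artery smooth muscle and atrium, stood at 221.1 CPM in cluster 9 (178.8 to 245.6 in libraries) and at 8.75 CPM in the smooth muscle class (3.25 to 21.7). Kcnk3 stood at 141.7 CPM (123.5 to 164.0) against 21.3 CPM. For both genes the libraries of cluster 9 lay above all smooth muscle libraries. A Kcna5 UMI was found in 32.6% of thinned cluster 9 cells against 1.63% of thinned smooth muscle cells.

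Of 23 members compared by the cluster rule, 11 were higher in cluster 9 than in the smooth muscle class and 7 lower, in all 6 libraries. Of all genes 9.18% were higher and 7.46% lower. Library values of the called members did not overlap, which the rule does not require and the shares of all genes do not cover. This comparison, too, was added after the clusters were seen. Other higher members were Kcne4 (121.7 against 20.5 CPM), Kcna2 (59.5 against 5.39), the inward rectifiers Kcnj12 (49.0 against 5.52) and Kcnj2 (22.3 against 0.105), the leak channel Kcnk1 (22.6 against 3.90), Kcnt1 (17.4 against 0.815), Abcc8 (14.7 against 0.179) and Kcnj11 (12.8 against 0.897). Kcnj2 is the classic strong inward rectifier of arteries, and it had 14 UMIs in 12733 smooth muscle cells. The lower members were Abcc9 (24.9 against 198.1 CPM), Kcnj8 (8.11 against 43.3), Kcnd3 (6.90 against 21.9), Kcnip4, Kcnc4, Kcns3 and Kcnj15. The subunits of the calcium-activated channel were not called, with Kcnma1 at 86.0 against 97.6 CPM and Kcnmb1 at 113.9 against 202.5 CPM, and neither was Kcnab1, at 216.4 against 150.1 CPM.

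Kcnj11 and Abcc8 stood higher in cluster 9 than in pericytes, and Kcnj8 and Abcc9 lower. Within cluster 9, Kcnj11 (12.8 CPM) stood above Kcnj8 (8.11 CPM), but Abcc9 (24.9 CPM) was still above Abcc8 (14.7 CPM). Kcnj11 and Abcc8, the subunits of the pancreatic beta cell form, lie next to each other on chromosome 7 (chr7:46093953-46100764 and chr7:46104523-46180033, minus strand, GRCm38), 3758 bases apart. In cluster 9, Kcnj11 ranged from 9.01 to 14.3 CPM over libraries and Abcc8 from 3.13 to 23.2 CPM. Pericytes had no UMI of either, which puts Kcnj11 at least 9.05-fold and Abcc8 at least 10.4-fold below cluster 9 by the 3-count limit. Kcnj8 and Abcc9 ran the other way, at 307.0 and 603.8 CPM in pericytes against 8.11 and 24.9 CPM in cluster 9. Of 23 members, 6 were higher and 12 lower in pericytes than in cluster 9, where 11.3% and 6.83% of all genes were. Kcnj11 and Kcnt1 were chosen for mention after their values were seen.

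**Figure D3:**
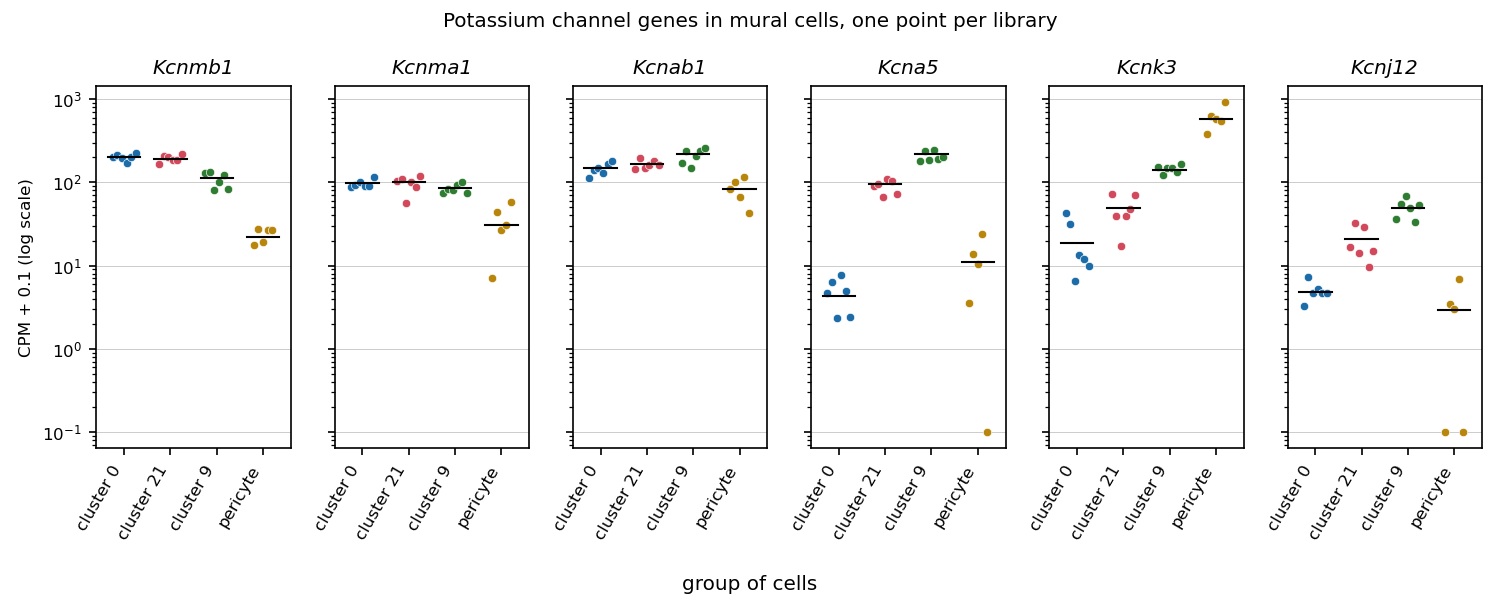
Points are libraries, black bars the pooled level, on a log axis of CPM + 0.1, for 6 members in the main smooth muscle cluster (cluster 0), the smaller cluster 21, the unnamed cluster 9 and pericytes. Kcnmb1 and Kcnma1 change little from cluster 0 to cluster 21, whereas Kcna5 and Kcnj12 are higher in cluster 21 and higher again in cluster 9.

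The smooth muscle class itself was not uniform. It held a main cluster of 11980 cells (cluster 0) and a smaller cluster of 606 cells with Sorbs2, Palld, Myh6 and P2rx1 among its leading genes (cluster 21). Against the rest of the class, 4 of 17 members were higher in cluster 21 and 5 lower, where 2.66% and 3.21% of all genes were. For cluster 0, 5 of 17 were higher and 4 lower (2.87% and 3.02% of all genes). Most cells outside cluster 0 are those of cluster 21, so these counts largely mirror the former and are no second result. In cluster 21 Kcna5 stood at 95.2 CPM (67.5 to 108.2 in libraries) against 4.61 CPM (2.28 to 9.56), without overlap. Kcnk3 (49.0 against 19.9) and Kcnj12 (20.6 against 4.80) were also higher. Kcnk3 libraries overlapped. The lower members were Abcc9 (74.7 against 204.0 CPM), Kcnj15 (1.97 against 20.97), Kcnip4 (1.64 against 18.6), Kcns3, an electrically silent subunit (2.13 against 11.3), and Kcnc4 (1.80 against 11.3). Kcnmb1, at 192.1 against 203.0 CPM, and Kcnma1, at 100.6 against 97.4 CPM, stayed within the spread of the libraries.

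Within smooth muscle the spread between libraries was widest for Kcna5 and Kcnk3, both of which were also higher in the smaller cluster. For the 20 members with at least 50 UMIs in every library, the highest library exceeded the lowest by a median factor of 1.71, against 1.32 over 10599 genes, and 5 of the 20 reached 2, as did 5.94% of all genes. Such ratios include counting error, which is larger at low levels, and the genes were not matched for level. Kcna5 ranged from 3.25 CPM in library 3 to 21.7 CPM in library 4, a ratio of 6.68. Kcnk3 ranged from 6.63 CPM in library 3 to 43.5 CPM in library 1, a ratio of 6.56. Within cluster 0 alone Kcna5 still ranged from 2.21 to 7.53 CPM and Kcnk3 from 6.43 to 42.4 CPM, so the Kcna5 range was narrower there and the Kcnk3 range was not. Kcnq3 ranged from 2.40 to 8.62 CPM. The narrowest were Kcnmb1 (1.29), Kcnma1 (1.33) and Kcnj8 (1.35). Whether the genotype takes part in these ranges cannot be told, since no library is tied to one.

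Endothelial cells (8387 cells) held Kcna5 at 70.5 CPM (50.4 to 95.99) and Kcnn4, the intermediate-conductance calcium-activated channel of endothelium and lymphocytes, at 43.0 CPM (30.4 to 55.5). Kcna5 was the single member placed in endothelium, where the rule placed 0.543% of all genes, with pericytes next at 10.8 CPM. Cluster 9, at 221.1 CPM, is not a named class and did not enter that rule. In the 4 alternatives that counted cluster 9 cells as pericytes, Kcna5 lost its place.

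Within the endothelium the members divided between 3 clusters. Cluster 4 (3232 cells) was led by Gpihbp1, Car4 and Rbp7, which are capillary genes, cluster 5 (3070 cells) by Gkn3, Gja5 and Bmx, which are arterial genes, and cluster 6 (2085 cells) by Selp, Vwf and Ackr1, which are venular genes. In all, 11 members differed between these clusters. Of those tested, 2 of 12 were higher and 5 lower in cluster 4 (7.22% and 8.53% of all genes). In cluster 5, 7 of 12 were higher and 3 lower (6.51% and 7.61%), and in cluster 6, 2 of 11 were higher and 5 lower (4.01% and 6.34%).

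Nearly all endothelial Kcna5 was in the capillary-led cluster. Kcna5 stood at 204.8 CPM in cluster 4 (160.2 to 229.3 in libraries) against 7.09 CPM in the other endothelial clusters (3.53 to 10.2), and a UMI was found in 34.2% of its thinned cells against 1.03% in cluster 5 and 1.60% in cluster 6. Kcnj15 (12.9 against 1.05 CPM) was the other higher member. Kcnc2, another voltage-gated pore, was higher in cluster 6, at 17.0 against 3.64 CPM.

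Kcnn4, Kcnn3 and Kcnt2 were highest in the artery-led cluster 5. Kcnn4 stood at 89.0 CPM in cluster 5 (70.6 to 115.2) against 12.3 CPM in the rest (5.04 to 14.7), and Kcnn3, the small-conductance channel that acts beside it in endothelium-dependent relaxation, at 31.3 CPM (26.6 to 43.3) against 0.423 CPM (0 to 0.899). Neither overlapped. The sodium-activated Kcnt2 stood at 43.0 against 8.19 CPM. The rest was itself uneven, with Kcnn4 at 24.8 CPM in cluster 6 and 1.37 CPM in cluster 4, and Kcnt2 at 16.1 and 1.37 CPM. Also higher in cluster 5 were the accessory subunit Kcne3 at 32.8 against 1.42 CPM and the inward rectifier Kcnj2 at 10.9 against 2.42 CPM. Kcnq1 stood at 15.2 against 5.85 CPM, but this gene overlaps the antisense transcript Kcnq1ot1, and no source used here says whether the counting used strand, which makes its value uncertain. Lymphatic endothelial cells, a separate class of 1537 cells, also held Kcnn3 (16.8 CPM, 10.9 to 31.3) and Kcnt2 (25.2 CPM), and were led by the leak channel Kcnk5 at 49.2 CPM (39.2 to 76.2).

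**Figure D4:**
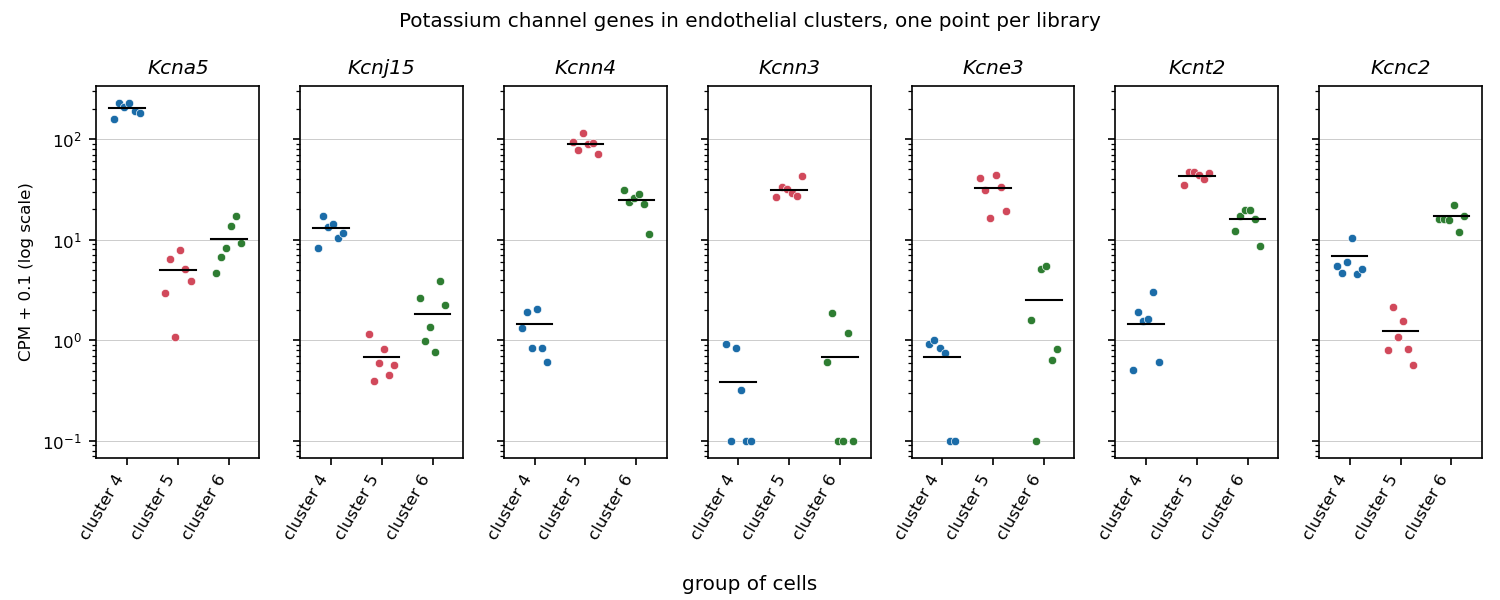
Points are libraries, black bars the pooled level, on a log axis of CPM + 0.1, for 7 members in the 3 endothelial clusters. Kcna5 and Kcnj15 are highest in cluster 4, Kcnn4, Kcnn3, Kcne3 and Kcnt2 in cluster 5, and Kcnc2 in cluster 6.

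Schwann cells (1748 cells) had the highest summed level of potassium channel genes of the 11 classes, and 83.4% of it came from the Shaker-type pores Kcna1, Kcna2 and Kcna6. These subunits are known for clustering beside the nodes of myelinated axons, and Schwann cells carry them too. Kcna1 (chr6:126640397-126646384, minus strand, GRCm38) stood at 2479.6 CPM (2442.6 to 2517), with libraries from 1661.9 to 2757.5 CPM and a median of 2546.9. No other class of at least 200 cells was above 5.23 CPM. Kcna2 stood at 588.7 CPM (418.4 to 690.4) and Kcna6 at 196.7 CPM (156.9 to 254.7), and with Kcnh8 (31.2 CPM) and the small-conductance Kcnn2 (18.3 CPM) these were the 5 members placed in Schwann cells, where the rule placed 1.24% of all genes. All 5 kept their place in all 14 alternatives. A Kcna1 UMI was found in 92.5% of thinned Schwann cells, against 0.180% of thinned smooth muscle cells.

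The class held 2 clusters that shared Kcna1 and differed in other members. Cluster 12 (1086 cells) was led by the myelin genes Mbp and Prx, and cluster 15 (662 cells) by Fabp7, Chl1 and Cdh19, as known from non-myelinating Schwann cells. This comparison was added after the clusters were seen and rests on 5 libraries. Of 24 members tested, 10 were higher in cluster 15 (10.2% of all genes) and 1 in cluster 12 (6.24%). Kcna1 stood at 2823 CPM in cluster 12 (1464 to 3623) and 2086 CPM in cluster 15 (1633 to 2361), with overlap and not called.

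The member higher in the myelin-led cluster was Kcnk1, a leak channel. Kcnk1 stood at 349.3 CPM in cluster 12 (239.4 to 423.6) against 0.620 CPM in cluster 15 (0 to 1.76), and a UMI was found in 53.2% of thinned cells of cluster 12 and in none of 486 of cluster 15, a count of 0 whose upper limit for cells with a UMI at this depth is 0.756% and which sets no limit on cells that express the gene. In the other direction Kcna2 stood at 869.5 CPM in cluster 15 (706.1 to 1211) against 343.4 CPM, and Kcna6 at 348.5 CPM (237.1 to 457.2) against 64.1 CPM. Kcnj10, the inward rectifier by which glia take up potassium, stood at 111.5 CPM (78.5 to 173.5) against 2.44 CPM (0 to 5.61), and Kcnn4 at 98.5 CPM against 2.98 CPM. Kcnq5, like Kcnh2, was chosen for mention after its values were seen. The further higher members were Kcnh8 (64.7 against 1.89 CPM), Kcnh2 (43.1 against 6.76), Kcnn2 (39.0 against 0.271), Kcnk13 (34.1 against 2.71), Kcnj12 (32.8 against 10.6) and Kcnq5 (10.5 against 0.812). None of these overlapped between clusters over the 5 libraries, which the rule does not require and the shares of all genes do not cover.

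**Figure D5:**
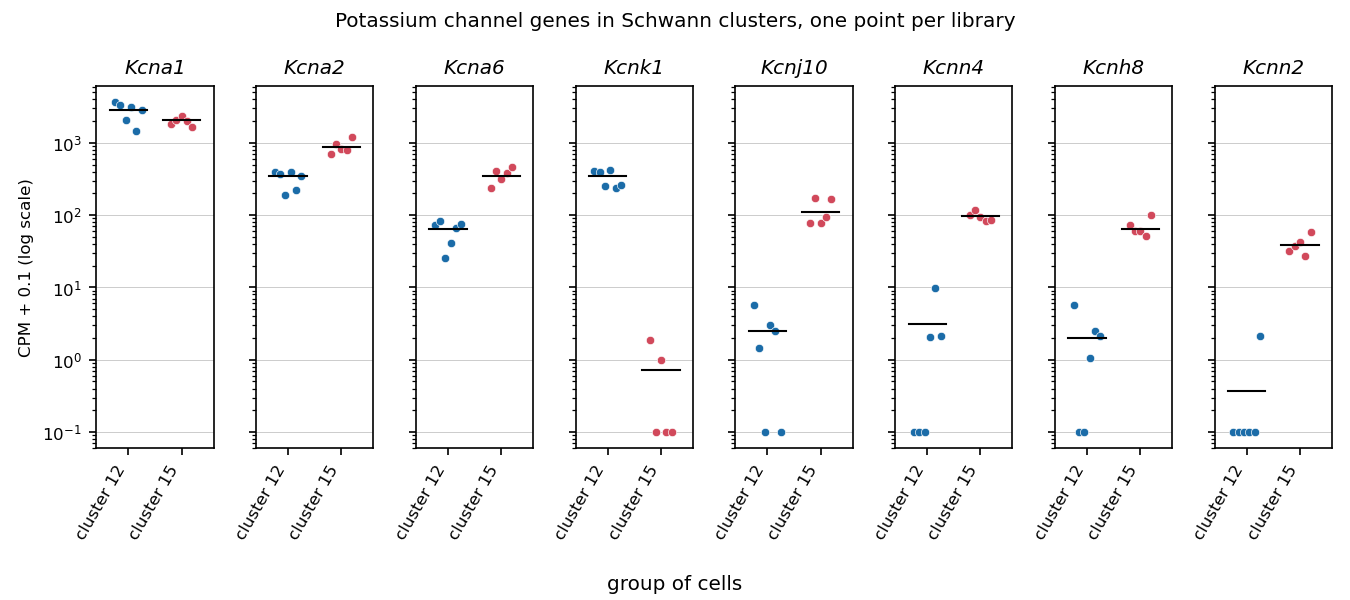
Points are libraries with at least 20 cells (6 for cluster 12, 5 for cluster 15), black bars the pooled level, on a log axis of CPM + 0.1, for 8 members. Kcna1 overlaps between the clusters, Kcnk1 is higher in cluster 12, and the other 6 are higher in cluster 15.

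Fibroblasts (16586 cells) had no placed member; the rule placed 0.728% of all genes there. Their leading members were Abcc9, Kcnj8, Kcne4 at 59.9 CPM (39.4 to 115.8) and Kcnt2 at 52.9 CPM (44.3 to 71.6), the last highest in fibroblasts in all 6 libraries. Between clusters 12 members differed, but 2 of the 5 clusters had library 5 as their single compared library. The larger differences that held in 6 libraries set apart cluster 11 (1125 cells, led by Pla1a, Cd55 and Cd248), which was lower for both ATP-sensitive subunits, with Kcnj8 at 15.6 against 108.6 CPM and Abcc9 at 95.5 against 270.3 CPM, and for Kcne4 (9.68 against 65.7) and Kcnma1. It was higher for Kcnk5 (34.1 against 3.14 CPM) and Kcnn3 (11.2 against 2.71). That made 2 of 11 members higher and 5 lower, where 3.86% and 4.85% of all genes were. Cluster 1 (8047 cells) was higher for Kcne4 (87.1 against 30.3 CPM) and lower for Kcnip3 and Kcnk5 (2 of 10 members each way, 1.71% and 2.49% of all genes), and cluster 2 (6597 cells) was higher for Kcnip3 at 16.6 CPM, with 1 of 10 each way (0.916% and 1.58%). In library 5 alone, cluster 13 was higher for the leak channel Kcnk2 (24.3 against 7.70 CPM), and cluster 24 was lower for Kcnt2 (7.40 against 47.5 CPM). In cluster 13, 3 of 13 members were higher and 2 lower (4.83% and 2.96% of all genes), and in cluster 24, 1 of 10 was higher and 3 lower (6.27% and 5.69%).

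Among the immune classes, Kcnn4 was high in lymphocytes and monocytes and low in macrophages. Kcnn4, which sustains calcium entry in activated lymphocytes, stood at 71.8 CPM in T cells (55.2 to 104.4), 63.8 CPM in monocytes (57.2 to 81.4) and 52.8 CPM in B cells, of which 2 libraries held at least 20 (36.7 and 52.0). The T cell and monocyte libraries overlapped, both B cell libraries lay below them, and macrophages stood at 5.51 CPM. Macrophages (3281 cells) were led by the leak channels Kcnk6 at 65.4 CPM (47.4 to 79.9) and Kcnk13, known from microglia, at 55.3 CPM (43.3 to 61.8), and neither was placed, with ratios of 3.69 to monocytes and 3.19 to Schwann cells. No member was placed in macrophages, monocytes, B cells or lymphatic endothelial cells, where the rule placed 0.645%, 0.401%, 0.347% and 0.45% of all genes. The voltage-gated pore Kcnc1 was placed in T cells at 39.8 CPM (18.1 to 109.4 in libraries), where the rule placed 0.885% of all genes, and kept its place in all 14 alternatives. Kcnab2, a cytoplasmic beta subunit, was highest in T cells at 38.2 CPM (19.9 to 43.4).

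Epithelial cells (333 cells) had 4 placed members, the inward rectifiers Kcnj1 (40.6 CPM), Kcnj16 (39.6 CPM) and Kcnj13 (20.8 CPM) and the accessory subunit Kcne1 (13.6 CPM), where the rule placed 1.28% of all genes. Library 1 (19 cells) and library 6 (4 cells) held too few cells for a level of their own but gave 48 and 12 of the 152 Kcnj1 UMIs and 14 and 5 of the 51 Kcne1 UMIs. The 2 libraries with at least 20 cells differed. Library 4, with 30 epithelial cells, held Kcnj1, the renal secretory channel, at 265.8 CPM, Kcnj16 at 245.4 CPM, its partner Kcnj10 at 167.7 CPM, Kcnq1 at 139.0 CPM and Kcne1 at 126.8 CPM. Library 5, with 280 cells, held the same genes at 8.06, 12.5, 3.28, 16.7 and 0.299 CPM, and instead Kcne3, the epithelial partner of Kcnq1, at 52.2 CPM and Kcnj15 at 52.2 CPM, where library 4 had no UMI of either. Kcnj13 stood at 20.4 CPM in library 4 and 21.5 CPM in library 5, and Kcnk1 at 73.6 and 103.3 CPM. The class is 1 cluster, and its pooled levels combine all 4 libraries. Without library 5 the class fell below 200 cells and none of the 4 could be placed. All 4 also lost their place with classes from the marker UMIs of each cell, where the epithelial class had 628 cells. Kcne1 lost it as well with at most 10% mitochondrial UMIs.

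Partner genes, fixed as lists of functional neighbours, were given the same rule. Of 37, 30 reached 10 CPM in a class and 6 were placed, where the rule placed 7.46% of all genes. The 37 were not limited to genes with at least 20 UMIs in a class, as the 7.46% was. No share of all genes is on hand for 10 CPM. Of 4 gamma-type partners of the calcium-activated channel 1 reached 10 CPM, Lrrc26, at 102.1 CPM in epithelial cells and 0.0224 CPM in smooth muscle. Of 8 partners of voltage-gated channels 5 reached 10 CPM and 1 was placed, Dpp10, at 3.83 CPM in smooth muscle. Of 10 calcium sources 9 reached 10 CPM and 4 were placed, among them the ryanodine receptor Ryr2 in smooth muscle at 70.9 CPM. Cluster 9 did not enter the rule and held Ryr2 at 91.1 CPM. Cacna1h was also higher in cluster 9 than in its class (113.6 against 27.8 CPM in B cells). Trpc6 was nearly level (15.2 against 14.6 CPM in pericytes), and Ryr3 was lower. All 6 kinases and all 9 genes of the potassium gradient reached 10 CPM, with 0 and 1 placed, the latter the pump subunit Atp1b1 in epithelial cells at 919.3 CPM.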

How the data were processed

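The authors deposited 1 matrix of UMI counts for all 6 samples, whole numbers and so neither scaled nor log-transformed, written by cellranger-6.1.2 per the file headers. Per the submitters' processing notes, GRCm38 was the build and the tools were bcl2fastq 5.01, Seurat 3.1.1 and Cell Ranger 3.1.0, another version than in the header. Barcodes carry a library suffix that matches no sample label, so the planned comparison of knockout with control was left out, with its tests.

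Barcodes with at least 500 genes and at most 20% mitochondrial UMIs were retained, and Scrublet was run on single libraries to remove doublets (3.02% to 11.3%). Cells were clustered with scanpy 1.11.5 (2000 variable genes without any member or partner gene, 30 components, 20 neighbours, Leiden resolution 0.5). Clusters in which 2 marker lists scored within 1 log2 unit were divided once more at resolution 0.2, a step added after clusters were seen. Clusters were named from 26 marker lists (at least 3 markers; unnamed where a second list lay within 0.3 log2 units, where depth times 3 was below the library median, or where the 10 leading genes held at least 2 more markers of another list, a tolerance set after clusters were seen). Clusters 7, 9 and 27 (2831 cells) stayed unnamed. Depth ranged from 4708 to 6289.5 UMIs per barcode (library medians).

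Cluster comparisons used clusters of at least 100 cells and libraries with at least 20 cells on both sides; spread used classes of at least 1000 cells; shares used cells thinned to 2000 UMIs. The members and lists were chosen with earlier results of these data known. Named genes were the placed members, the 4 highest per role group, the 2 highest per class, those differing between clusters, and the 3 widest and narrowest spreads. Kcnd3, Kcnh2, Kcnj11, Kcnk9, Kcnq5 and Kcnt1 were chosen after their values were seen. The values of 2 members are not reported here, though the counts include them. Coordinates are from GENCODE M21, promoters from RefSeq. Placement and cluster rules were tested on simulated data.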

Additional observations from a re-analysis of the deposited data

Results flagged for a closer look

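Of 34 groups of 4 to 6 library values of named members, 2 (5.88%) had a library whose gap to the others was large for the range, and chance gives about 1 in 20. Kcnc1 in T cells stood at 109.4 CPM in library 2, which held 44 T cells, against 18.1 to 51.0 CPM in the other 5. Kcnj2 in endothelial cells stood at 10.4 CPM in library 6, against 4.42 to 5.81 CPM in the others.

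Antisense transcripts were outside the members and also gave UMIs. Kcnq1ot1, a long imprinted transcript antisense to Kcnq1, had 107531 UMIs, more than any member, with 495.4 CPM in fibroblasts and 126.1 CPM in the lowest class of at least 200 cells. The others had few, with 180 for Kcnd3os, 68 for Kcnmb4os2, 15 for Kcnab3os and 6 for Kcnmb4os1, against the limit of 3 counts.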

How the results depend on the processing

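No paired analysis was possible because the barcodes carry no replicate label, and the alternatives for knockout against control (DESeq2, no count filter, a replicate block, replicates left out) were not run for the same reason. Macrophages formed 1 cluster, so its cluster comparison gave no value. The count of members placed, 15 in the text, ranged from 12 to 21 over the alternatives and from 14 to 20 without 1 library each. Members differing between smooth muscle clusters numbered 15 rather than 9 with at most 10% mitochondrial UMIs, and spreads of at least 2-fold numbered 4 with a minimum of 100 UMIs and 17 with doublets kept, rather than 10. Without 1 library each, the counts were 39 to 43 members at 10 CPM, 9 between smooth muscle clusters, 10 to 11 between endothelial clusters and 8 to 12 between fibroblast clusters.

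Of 461 alternative values for the ratio of the 2 highest classes of 42 named members, 380 kept direction and size, 61 moved and 20 reversed. Most reversals came with a pericyte class that took in cells of cluster 9 (489 at resolution 1.0, 409 at 10% mitochondrial UMIs, 472 with doublets kept, 456 with classes from each cell's marker UMIs). In that order, the log2 ratio of pericytes to fibroblasts was -0.178, -0.185, -0.148 and -0.585 for Abcc9, and that of endothelial cells to pericytes was -1.14, -1.16, -1.25 and -0.94 for Kcna5. For Kcnab1, smooth muscle to pericytes was -0.212, -0.181 and -0.194 under the first 3. With marker-UMI classes, pericytes to fibroblasts was -0.208 for Kcnj8 and -0.244 for Kcnip3, and epithelial cells to fibroblasts -0.244 for Kcnk2. With libraries weighted equally, Kcnk2 stood at -0.609 and Schwann to epithelial cells at -0.916 for Kcnj10. Kcnj2 was level between endothelial cells and macrophages, at -0.00294 with doublets kept and -0.102 to 0.145 without 1 library each, below 0 without libraries 1, 5 or 6 (-0.0913, -0.102 and -0.0776). The cause of these changes was not tested.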

Other observations

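Channel genes were also seen in classes too small for the placement rule. The adrenocortical class, which has no place in the aortic wall, held 102 cells, 22 in library 4 and 58 in library 5. Its acid-sensitive leak channels Kcnk3 and Kcnk9, known to set the resting potential of adrenal cells, stood at 894.0 and 240.8 CPM in library 5 and at 14.5 and 4.83 CPM in library 4. Kcnma1 (191.3 against 48.3 CPM) and Kcnn2 (118.8 against 4.83 CPM) were likewise higher in library 5, while Kcnj13 stood at 367.0 CPM in library 4 with no UMI in library 5. Kcnk9 stood at 0.422 CPM at most in the classes of at least 200 cells. The whole class held 655119 UMIs, so the values of 4.83 and 14.5 CPM in library 4 rest on few UMIs. The class is 1 cluster, and these values have no second pair of libraries.

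Kcnk3 was also high in a smooth muscle cluster of 76 cells led by Actc1, Tnnt3 and Des, 74 of them in library 5, at 223.6 CPM, where Kcnmb1 stood at 174.1 CPM. In 183 cells with valve markers, 181 of them in library 2, Kcnma1 stood at 54.3 CPM, Abcc9 at 75.0 CPM and Kcnj8 at 15.6 CPM.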
